A study of Mus musculus with 8 samples.

Results

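The genes of cholesterol and fatty acid synthesis were followed in mouse intestinal organoids cultured with or without RANKL, the ligand of the receptor RANK. The list holds 31 genes chosen by name from the SREBP pathway and the enzymes of lipid synthesis, out of 54532 genes in the count table, and all 31 were found. The rule goes by name and uses no expression value. Gene expression was measured by 3′ mRNA sequencing in 8 libraries, 4 labelled control organoids and 4 labelled RANKL-treated organoids. Both groups were epithelial organoids without stroma. The study's standard medium for mouse organoids held EGF, NOGGIN and R-spondin, and its methods do not assign a medium to these libraries by name. The labels give no genotype, strain, age, dose or duration for these libraries, and nothing says whether libraries of a group came from separate mice or cultures, so p-values measure only the spread between these libraries. Values are given as CPM, the counts of a gene per 1000000 counts of its library, with library totals scaled by TMM normalisation. Since reads come from the 3′ end of transcripts, a count does not scale with the length of its gene.

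Cells build cholesterol from acetyl-CoA through the mevalonate pathway, which runs to farnesyl diphosphate, and then through squalene and a series of sterol intermediates. Fatty acids are built from the same acetyl-CoA by carboxylation, chain synthesis, elongation and desaturation. The SREBP transcription factors switch on most of these enzymes: when membrane sterols are low, the escort protein SCAP carries SREBP from the endoplasmic reticulum to the Golgi for cleavage, and when sterols are high, INSIG proteins hold SCAP and SREBP back. In the small intestine, absorptive cells also take up cholesterol and fat from the lumen and export them as lipoproteins.

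SREBP proteins bind sterol regulatory elements next to sites for NF-Y and Sp1, and the stretches before 4 members that passed the test are shown to let these letters be seen. RefSeq promoters on GRCm38.p6 matched 25 of the 31 members. Fdps, Fdft1, Sqle, Stard4, Scd1 and Scd2 had no entry and were not searched. For the others, the 250 bases before each start were searched on both strands. The letters sought were TCACNCCAC (a sterol regulatory element), CCAAT (the NF-Y box), GGGCGG (a GC box bound by Sp1) and CACGTG (an E-box). Capitals mark matches to any of these, and no match overlaps another in the stretches shown. The Hmgcs1 stretch, at chr13:119690101-119690350 on the plus strand, was the only member promoter among those searched with a match to the sterol element. The stretch before Insig1 lies at chr5:28071162-28071362 on the plus strand and stops at the annotated gene start. The stretch before Pmvk lies at chr3:89454291-89454540 on the plus strand, and that before Acly at chr11:100528001-100528250 on the minus strand. These 3 were chosen after their values were seen.
Hmgcs1: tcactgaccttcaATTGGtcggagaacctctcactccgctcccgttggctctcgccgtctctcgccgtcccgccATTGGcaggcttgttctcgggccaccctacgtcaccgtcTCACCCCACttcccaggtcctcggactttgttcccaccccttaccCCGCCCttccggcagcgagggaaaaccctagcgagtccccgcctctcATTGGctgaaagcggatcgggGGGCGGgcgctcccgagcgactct
Insig1: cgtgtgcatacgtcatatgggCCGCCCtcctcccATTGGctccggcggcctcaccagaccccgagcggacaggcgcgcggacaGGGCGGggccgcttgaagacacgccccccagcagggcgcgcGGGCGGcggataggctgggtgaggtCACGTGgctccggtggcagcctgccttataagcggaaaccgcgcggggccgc
Pmvk: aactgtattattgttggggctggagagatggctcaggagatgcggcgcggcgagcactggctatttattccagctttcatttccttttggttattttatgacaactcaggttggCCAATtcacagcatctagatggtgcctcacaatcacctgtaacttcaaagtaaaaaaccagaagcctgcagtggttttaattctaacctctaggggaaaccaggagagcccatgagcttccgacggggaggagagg
Acly: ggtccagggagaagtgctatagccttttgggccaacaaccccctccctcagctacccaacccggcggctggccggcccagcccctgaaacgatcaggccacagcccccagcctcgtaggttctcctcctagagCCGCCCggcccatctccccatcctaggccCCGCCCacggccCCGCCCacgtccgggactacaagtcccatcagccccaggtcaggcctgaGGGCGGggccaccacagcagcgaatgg

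The sterol element was found in 1 of the 25 members and in 1.22% of the 27025 genes in the RefSeq promoter table. In the Hmgcs1 stretch it stood 137 to 129 bases before the start, between boxes for NF-Y and a GC box. The NF-Y box was present in 20 of the 25 members, against 37.5% of all genes in that table and 41.0% of those tested for expression. A GC box was present in 21 of 25, against 35.4% and 66.6%, and an E-box in 5 of 25, against 6.86% and 10.5%. These are matches of letters in a short window, and factor binding was not measured.

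The 8 libraries held 583663 to 7807298 counts on genes, and the medians were 3911808 for control and 1613410 for RANKL-treated organoids, so the treated group was the shallower one. Control replicate 4 and RANKL replicate 1 were the shallowest. The organoid labels were checked against markers: epithelial markers summed to 6875 to 7998 CPM in the control and 6559 to 7134 CPM in the RANKL libraries, with 3 of 7 lower, while fibroblast, immune and endothelial markers summed to at most 9.69 CPM, with Dcn, Cd3e, Cdh5 and Kdr at 0. Markers of M cells, an epithelial type that samples antigen and is known to depend on RANKL, went from 50.0 to 59.0 CPM in the control to 1828 to 2066 CPM under RANKL, with 5 of 5 tested markers higher and Gp2 at 0 in every library. Markers of proliferating cells summed to 1086 to 1348 CPM in the control and 967 to 1045 CPM under RANKL, with 2 of 6 lower. Enterocyte markers summed to 3780 to 4060 and 3509 to 3863 CPM, with 1 of 7 lower. Stem cell markers summed to 1216 to 1629 and 1034 to 1235 CPM, with 3 of 5 lower and 1 higher. Most of that sum was Olfm4, which was not called (means of 1162 and 1026 CPM). Mean Lgr5 fell from 45.1 to 10.3 CPM, Smoc2 from 154 to 89.0 CPM and Axin2 from 28.5 to 14.7 CPM. Ascl2 rose from 17.6 to 37.3 CPM. Among the markers of Paneth and goblet cells 1 of 5 each was lower, and 2 of 5 enteroendocrine markers were higher. The part of these shifts in the values given here was not tested, and in bulk samples fewer cells of a type and less RNA per cell cannot be told apart.

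Of the 31 lipid synthesis genes, 30 passed the filter on low counts, and RANKL raised 4 and lowered 5 of them. Hmgcs1 and Fdft1 on the sterol side and Acly and Acaca on the fatty acid side were higher, while Pmvk, Fdps, Sqle, Lbr and Insig1 were lower. All 9 changes were small, between 1.25-fold and 1.59-fold. By edgeR's quasi-likelihood test at an adjusted p below 0.05, 13.6% of the 9971 genes tested were called higher and 12.4% lower, 25.9% in all. The members stood at 13.3% higher and 16.7% lower, near that background. The median log2 fold change of the 30 members was -0.08, against 0.00 over all genes tested, and the median size of the change was 0.24 on the log2 scale, against 0.26. The 4 RANKL libraries lay wholly on one side of the 4 control libraries for 9 members, 3 higher and 6 lower, where 24.6% of all genes tested did so, 13.1% higher and 11.5% lower. For 21 members the test was not passed, and in 16 of these the 95% interval of the difference lay within a 1.5-fold change either way.

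**Figure D1:**
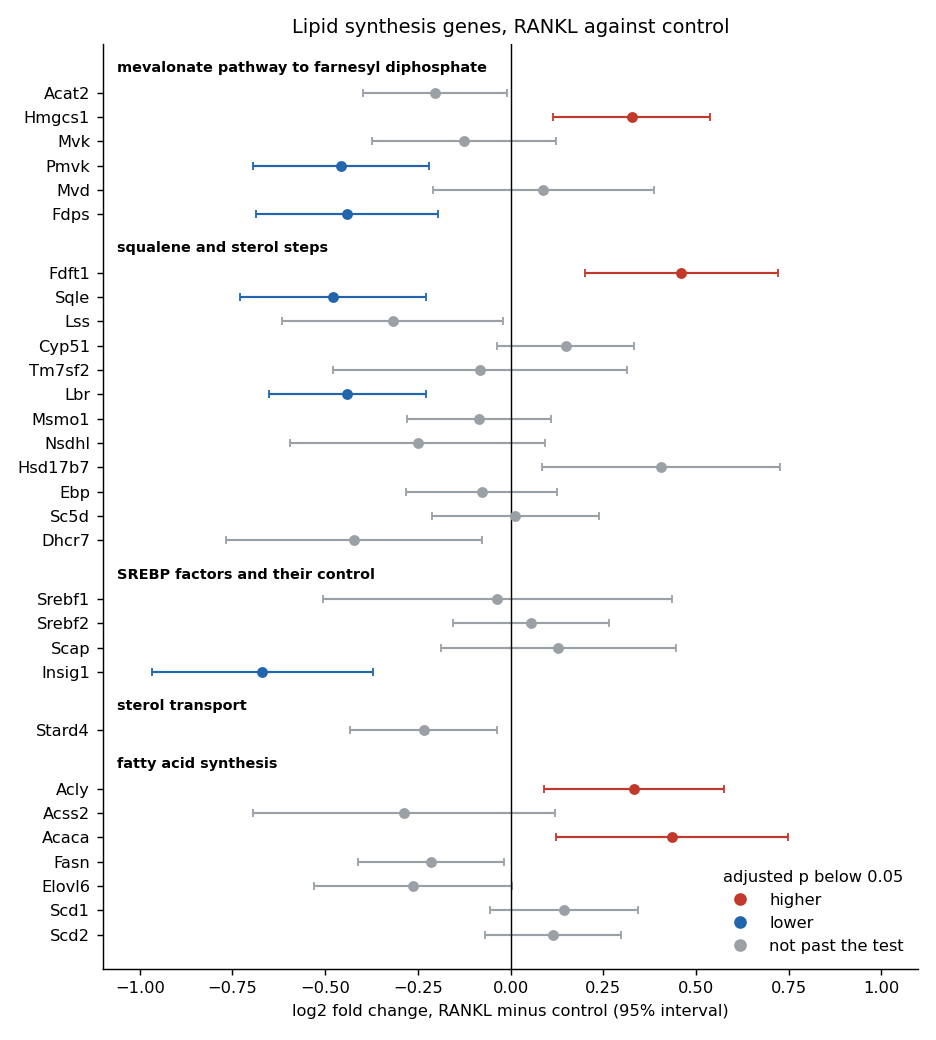
Log2 fold change of RANKL over control for the 30 tested genes, grouped by role, with 95% intervals as bars. Red and blue mark genes higher or lower at an adjusted p below 0.05 and grey those not past the test; the called changes run from -0.67 for Insig1 to 0.46 for Fdft1, and each role but sterol transport holds at least 1 called gene.

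The mevalonate pathway held 1 called rise and 2 called falls among 6 tested genes (16.7% and 33.3%, against 13.6% and 12.4% of all genes tested). Hmgcs1 (ENSMUSG00000093930, chr13:119690379-119708260) encodes the synthase that makes HMG-CoA. It measured 971, 1033, 765 and 975.1 CPM in control replicates 1 to 4, and 1120.4, 1071, 1124 and 1369 CPM in RANKL replicates 1 to 4. Each RANKL library was above each control library, with control replicate 3 the lowest and RANKL replicate 4 the highest of their groups. The mean rose from 936 ± 117 to 1171 ± 134 CPM (SD, n = 4 each). The log2 fold change was 0.33 ± 0.10 (SE), with an adjusted p of 0.019. Without control replicate 3 the adjusted p was 0.056, and without RANKL replicate 4 it was 0.115.

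Pmvk (ENSMUSG00000027952, chr3:89454541-89469013) encodes phosphomevalonate kinase, which adds a phosphate to phosphomevalonate. It measured 200.3, 179, 251 and 181 CPM in the control and 136, 159.7, 159 and 139 CPM in the RANKL libraries. The groups did not overlap, and control replicate 3 was the highest of all. The log2 fold change was -0.46 ± 0.12 (SE), with an adjusted p of 0.0034. Fdps (ENSMUSG00000059743, chr3:89093588-89101959) encodes the enzyme that joins isoprene units into farnesyl diphosphate. Its levels were 482, 338, 470.1 and 315 CPM in the control and 274, 313, 339.5 and 269 CPM under RANKL. Here control replicates 1 and 3 stood well above replicates 2 and 4, and the latter overlapped the RANKL libraries. Fdps fell by 0.44 on the log2 scale, with an SE of 0.12 and an adjusted p of 0.0066.

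The other members of the mevalonate pathway did not pass the test. Acat2, the thiolase that makes acetoacetyl-CoA, measured 293 to 335 CPM in the control and 261 to 279 CPM under RANKL, with no overlap, a log2 fold change of -0.20 (95% interval -0.40 to -0.01) and an adjusted p of 0.118. Mvk, mevalonate kinase, had a log2 fold change of -0.13 (-0.37 to 0.12). Mvd, which decarboxylates mevalonate diphosphate to isopentenyl diphosphate, turned on a single library. The control libraries held 793, 854, 1540 and 782 CPM, and the RANKL libraries 1036, 1187, 1119 and 902 CPM. That 1 control library set the group's mean, and the log2 fold change over all libraries was 0.09 (-0.21 to 0.39, adjusted p = 0.70). With control replicate 3 left out, Mvd was called higher, at a log2 fold change of 0.39 and an adjusted p of 0.0016. Idi1, the isomerase of isopentenyl diphosphate, had 20, 10, 8 and 5 counts in the control and 0, 3, 1 and 4 counts in the RANKL libraries and was not tested. A count of 0 in RANKL replicate 1 allows up to 4.84 CPM (3 counts), which is above 3 of the 4 control values of 2.55, 2.68, 2.03 and 8.60 CPM.

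**Figure D2:**
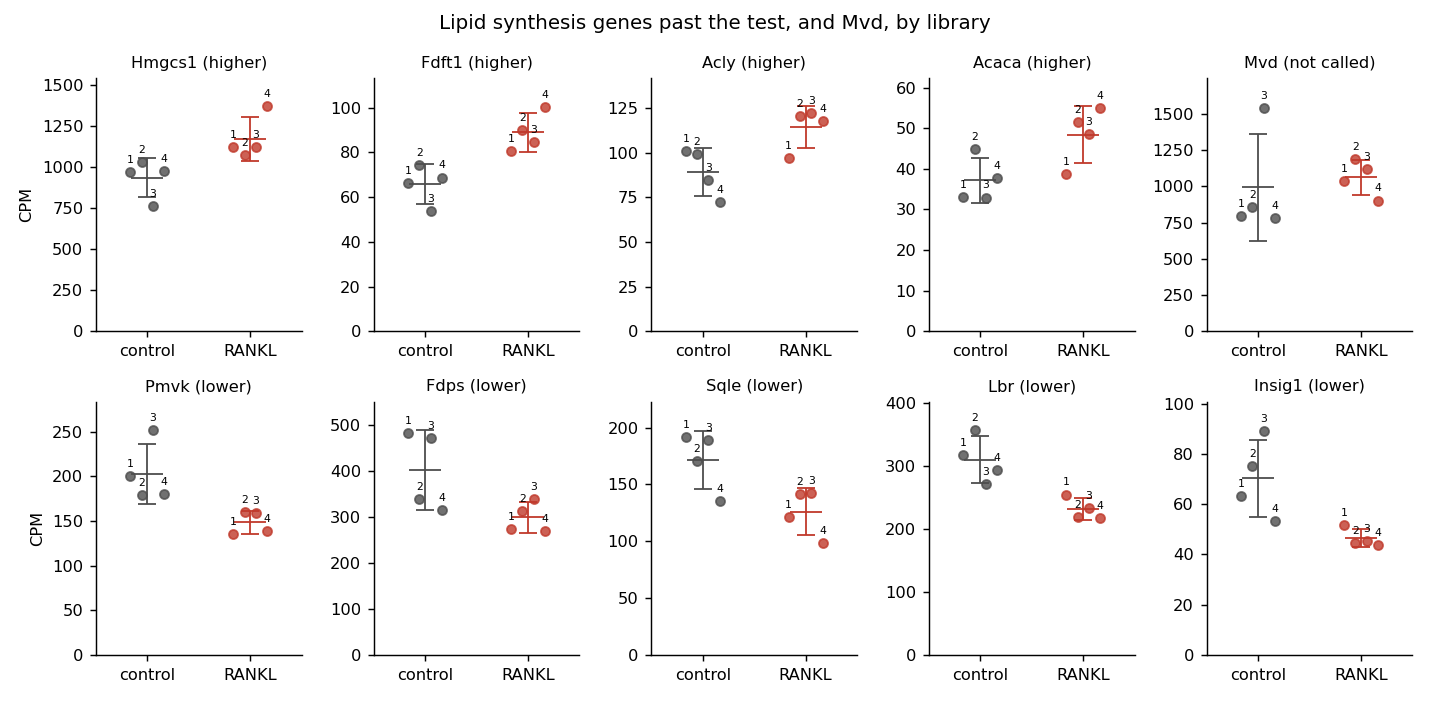
CPM in each library (points, numbered by replicate) with the mean and SD of each group for the 9 called genes and for Mvd, on axes that start at 0. The RANKL points lie wholly above the control points for Hmgcs1 and Fdft1 and wholly below them for Pmvk, Lbr and Insig1; Mvd in control replicate 3 stands at 1540 CPM.

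The squalene and sterol steps held 1 called rise and 2 called falls among 12 tested genes (8.33% and 16.7%, against 13.6% and 12.4% of all genes tested). Fdft1 (ENSMUSG00000021273, chr14:63145150-63179578) encodes squalene synthase, which joins farnesyl diphosphate into squalene. It measured 66.2, 74.6, 53.7 and 68.8 CPM in the control and 80.7, 90.2, 84.5 and 101 CPM in the RANKL libraries. All RANKL libraries were above all controls, and control replicate 3 was again the lowest. Fdft1 rose by 0.46 ± 0.13 (SE) on the log2 scale, 1.38-fold, with an adjusted p of 0.0071, and the adjusted p was 0.051 without RANKL replicate 4. Sqle (ENSMUSG00000022351, chr15:59315077-59331192) encodes squalene epoxidase, a rate-limiting enzyme of the sterol branch. It measured 191, 170.4, 189 and 136 CPM in the control and 121, 142, 142 and 98.9 CPM under RANKL. The shallow control replicate 4 lay among the RANKL values and the other controls above them. Sqle fell by 0.48 on the log2 scale, with an SE of 0.12 and an adjusted p of 0.0039. Fdps, Fdft1 and Sqle catalyse consecutive steps and were called lower, higher and lower. This order was not tested, and the members were called at rates near those of all genes tested.

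Lbr (ENSMUSG00000004880, chr1:181815335-181843046) encodes the lamin B receptor of the inner nuclear membrane, which is also a sterol reductase. Its control libraries held 318, 358, 272 and 294 CPM and its RANKL libraries 255, 219.6, 234 and 217 CPM. Every RANKL value was below every control value. Lbr fell by 0.44 on the log2 scale, with an SE of 0.10 and an adjusted p of 0.0018. Tm7sf2, the other sterol reductase for the same step, measured 23.3 to 37.8 CPM in the control and 14.5 to 29.7 CPM under RANKL, with a log2 fold change of -0.08 (95% interval -0.48 to 0.31). In the annotation, exons of Tm7sf2, Lbr and Fdps overlap those of Vps51, Gm26004 and Gm43738 on the same strand, where reads cannot be assigned to a single gene.

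The other 9 genes of the squalene and sterol steps did not pass the test. Hsd17b7, a reductase in the removal of methyl groups from the sterol ring, came closest, with 31.4 to 58.5 CPM in the control and 49.5 to 63.3 CPM under RANKL, a log2 fold change of 0.41 (0.09 to 0.73) and an adjusted p of 0.055. Dhcr7, the reductase of the last step to cholesterol, had 38.3, 35.96, 32.4 and 51.6 CPM in the control and 24.2, 31.7, 25.0 and 29.1 CPM under RANKL. These groups did not overlap, and the log2 fold change was -0.42 (-0.77 to -0.08, adjusted p = 0.064). Cyp51, the lanosterol demethylase, also did not overlap, at 673 to 774 CPM in the control and 777 to 843 CPM under RANKL, yet the difference was small: 0.15 on the log2 scale (-0.04 to 0.33, adjusted p = 0.241). Lss, lanosterol synthase, had a log2 fold change of -0.32 (-0.62 to -0.02, adjusted p = 0.112). Nsdhl, which acts with Hsd17b7 and Msmo1 on the methyl groups, had -0.25 (-0.59 to 0.09). Smaller values were found for Msmo1 at -0.08 (-0.28 to 0.11), the sterol isomerase Ebp at -0.08 (-0.28 to 0.13) and the desaturase Sc5d at 0.01 (-0.21 to 0.24).

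The SREBP genes themselves were not called, while the gene for their retention factor was. Insig1 (ENSMUSG00000045294, chr5:28071363-28078662), which is itself a known SREBP target, measured 63.4, 75.1, 89.2 and 53.3 CPM in the control and 51.7, 44.7, 45.4 and 43.9 CPM in the RANKL libraries. The RANKL values lay close together and below every control, with control replicate 4 and RANKL replicate 1, the shallowest pair, nearest to each other. The mean fell from 70.3 ± 15.5 to 46.4 ± 3.54 CPM (SD, n = 4 each). On the log2 scale it was -0.67 ± 0.15 (SE), 1.59-fold lower, with an adjusted p of 0.00079. Srebf2, which encodes the factor that mainly drives cholesterol genes, measured 223 to 266 CPM in the control and 225 to 286 CPM under RANKL, with a log2 fold change of 0.06 (95% interval -0.16 to 0.27). Srebf1, whose product mainly drives fatty acid genes, was low, at 10.6 to 18.2 and 13.0 to 16.1 CPM, and its interval was wide (-0.51 to 0.43 on the log2 scale). Scap, the escort protein's gene, had a log2 fold change of 0.13 (-0.19 to 0.44). Stard4, a cytosolic cholesterol carrier, measured 239 to 270.0 CPM in the control and 211 to 218 CPM under RANKL, with no overlap, a log2 fold change of -0.23 (-0.43 to -0.04) and an adjusted p of 0.074.

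In fatty acid synthesis, the enzymes that supply acetyl-CoA from citrate and malonyl-CoA were called higher, and the synthase and the later enzymes did not pass the test. Acly (ENSMUSG00000020917, chr11:100476353-100528000), ATP citrate lyase, measured 101, 99.3, 84.4 and 72.2 CPM in the control and 96.9, 120.4, 122 and 118 CPM under RANKL. RANKL replicate 1 lay among the controls. The log2 fold change was 0.33 ± 0.12 (SE), with an adjusted p of 0.038. Acaca (ENSMUSG00000020532, chr11:84129672-84401651), acetyl-CoA carboxylase, which makes the malonyl-CoA used by the synthase, measured 33.0, 44.8, 32.9 and 37.8 CPM in the control and 38.7, 51.6, 48.5 and 54.9 CPM under RANKL. Here too the groups overlapped, through control replicate 2 and RANKL replicate 1. Acaca rose by 0.43 ± 0.15 (SE) on the log2 scale, with an adjusted p of 0.035. The Acly call was lost under 7 and the Acaca call under 8 of the 15 alternative analyses.

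Fasn, fatty acid synthase, measured 520.0, 577, 622 and 518 CPM in the control and 441, 529, 489 and 470.1 CPM under RANKL. RANKL replicate 2 lay above 2 of the controls, and the log2 fold change was -0.21 (95% interval -0.41 to -0.02, adjusted p = 0.104). Elovl6, which lengthens palmitate, had a log2 fold change of -0.26 (-0.53 to 0.00). Acss2, which makes acetyl-CoA from acetate, had -0.29 (-0.69 to 0.12). The desaturases Scd1 and Scd2, which place the first double bond into a saturated chain, had 0.14 (-0.06 to 0.34) and 0.11 (-0.07 to 0.30). These are close paralogs, and how the counting treated reads that fit both is not known.

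Summed over the 31 genes, the levels of the libraries were alike. Control replicates 1 to 4 held 7724, 7977, 8232 and 7378 CPM and RANKL replicates 1 to 4 held 7740, 7956, 7999.6 and 7749 CPM. The RANKL libraries lay inside the range of the controls, with means of 7828 ± 364 CPM and 7861 ± 136 CPM (SD, n = 4 each). The sums of the mevalonate pathway, the squalene and sterol steps and fatty acid synthesis overlapped between groups as well. The highest mevalonate sum, 3425 CPM in control replicate 3, held the 1540 CPM of Mvd. A sum weights each gene by its level and gives the genes with few counts little part in it.

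**Figure D3:**
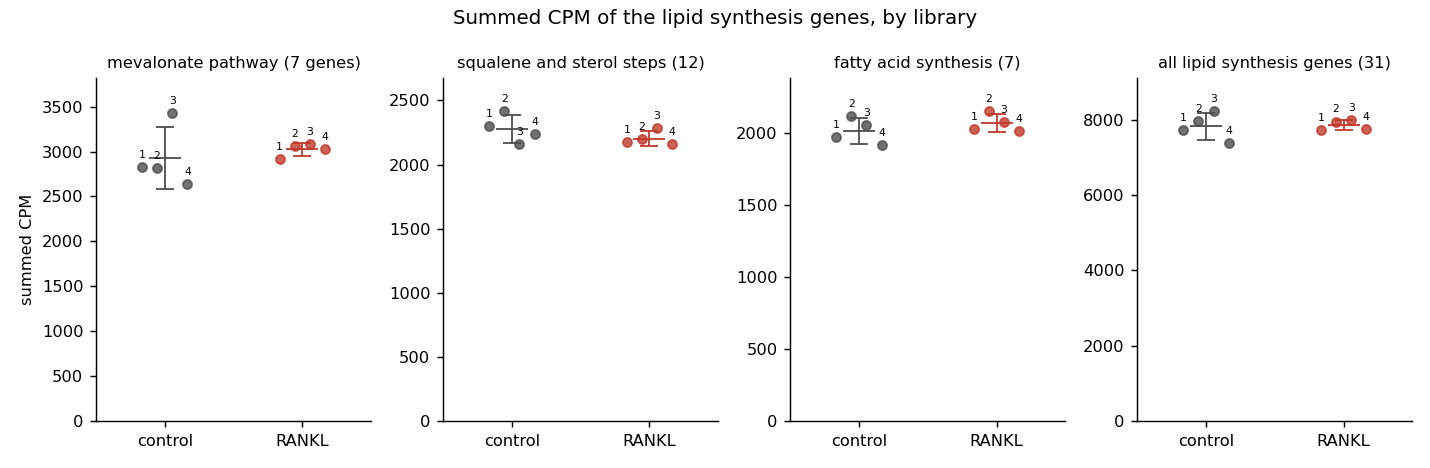
Summed CPM of the genes of 3 roles and of all 31 genes in each library (points, numbered by replicate), with the mean and SD of each group, on axes that start at 0. The RANKL sums lie between 7740 and 7999.6 CPM for all genes, inside the control range of 7378 to 8232 CPM.

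The falls held more firmly than the rises when the analysis was changed. All 5 falls kept their call in each of the 15 alternatives, which comprised 8 fits with 1 library left out and 7 others. The DESeq2 Wald test and the fit without a filter on low counts each called the 5 lower and 2 members higher, Hmgcs1 and Fdft1. The background was then 7.88% higher and 6.21% lower of 13668 genes by DESeq2, and 5.24% and 5.57% of 23836 genes without the filter. Both shares are over more genes than the 9971 of the main test, so they cannot be set beside its shares. With at least 10 counts in every library, 5 members were higher and 5 lower (18.5% each). The background there was 15% higher and 14.3% lower of 6593 genes. None of the 4 rises kept its call throughout. Without RANKL replicate 4, edgeR called 0 members higher, although 5 had an unadjusted p below 0.05, while 10.2% of all genes tested were still called higher. The 5 falls were called in that fit too, where 7.97% of all genes were called lower. Without control replicate 3, 2 members were higher (Fdft1 and Mvd) and 7 lower, as Dhcr7 and Stard4 joined the 5, against 12.9% and 11.3% of all genes. The log2 fold changes of the rises themselves stayed between 0.24 and 0.56 whichever library was left out, and those of the falls between -0.76 and -0.33.

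**Figure D4:**
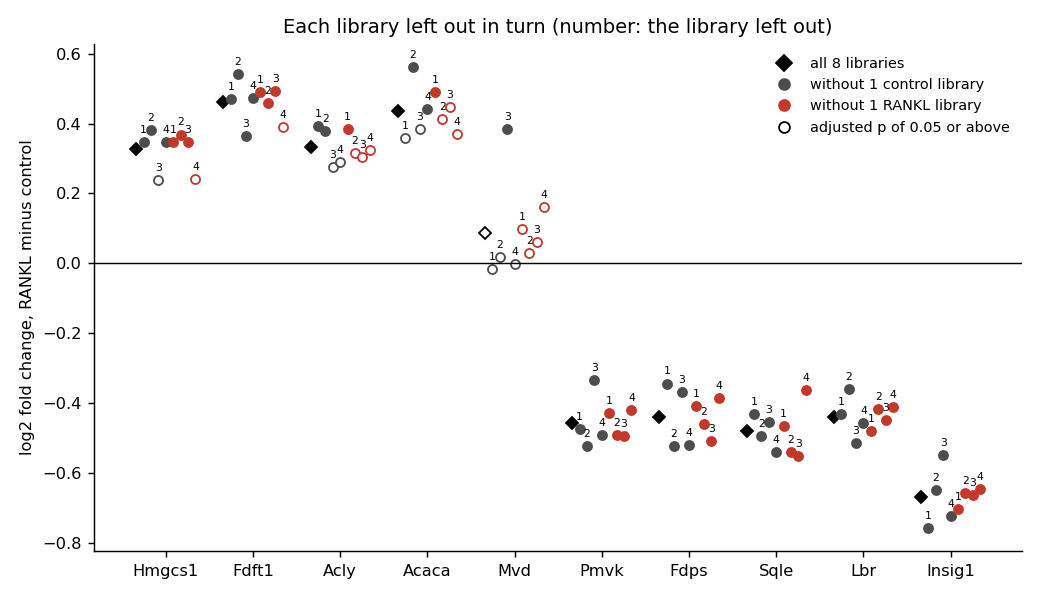
Log2 fold change of the 9 called genes and Mvd with all 8 libraries (diamonds) and with 1 library left out (circles, numbered by the replicate left out); open symbols have an adjusted p of 0.05 or above. The 5 falls stay filled throughout, the 4 rises are open without RANKL replicate 4, and Mvd is filled only without control replicate 3.

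Genes that act beside the synthesis enzymes were read from the same fit. Of 7 other tested genes of sterol and isoprenoid synthesis, 1 passed the test (14.3%, against 25.9% of all genes tested). This was Por, the reductase that feeds electrons to Cyp51 and squalene epoxidase. Por fell by 0.39 ± 0.11 (SE) on the log2 scale (adjusted p = 0.0084), and the adjusted p was 0.057 without RANKL replicate 2. Of 13 genes for SREBP processing and sterol-dependent degradation, 1 passed (7.69%, against the same 25.9%). This was Rnf145, a sterol-responsive ubiquitin ligase, which fell by 0.54 ± 0.12 (SE) on the log2 scale (adjusted p = 0.0013).

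SREBP targets outside the synthesis enzymes went both ways, with 2 of 11 higher and 2 lower (18.2% each, against 13.6% higher and 12.4% lower over all genes tested). Tmem97, a sterol-binding membrane protein's gene, measured 159.7 to 245 CPM in the control and 111 to 153 CPM under RANKL, and fell by 0.58 ± 0.13 (SE, adjusted p = 0.00084) on the log2 scale. Me1, the malic enzyme that supplies NADPH for lipid synthesis, measured 58.6, 62.3, 57.3 and 56.8 CPM in the control and 121, 97.0, 95.4 and 133 CPM under RANKL. This was a rise by 0.91 ± 0.13 (SE) on the log2 scale (adjusted p = 1.5e-06), with no overlap. Npc1l1, the intestinal cholesterol uptake transporter, rose by 0.54 ± 0.14 (SE, adjusted p = 0.0041), and by 0.37 without control replicate 3, its lowest control.

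Single genes of sterol traffic and of fatty acid elongation and oxidation had called changes above the 1.59-fold of Insig1, but this compares extremes and the lists were not tested against each other. The median size of the change was 0.32 on the log2 scale for sterol traffic, 0.43 for elongation, desaturation and activation and 0.21 for oxidation and ketogenesis, beside 0.24 for the synthesis genes and 0.26 over all genes tested. Of 12 tested genes of LXR signalling, efflux, storage and traffic, 2 were higher and 4 lower (16.7% and 33.3%, against 13.6% and 12.4% of all genes tested). Npc1, which moves cholesterol out of lysosomes, rose 1.89-fold (log2 fold change 0.92 ± 0.19 SE, adjusted p = 0.00038). Scarb1, a receptor for HDL, was low, with 10.1 to 15.5 CPM in the control and 3.23 to 6.04 CPM under RANKL, and its log2 fold change was -1.32 ± 0.31 (SE, adjusted p = 0.0015). Abcg8, a part of the sterol efflux transporter, and Soat1, which esterifies cholesterol for storage, had log2 fold changes of -0.41 and -0.34 (adjusted p = 0.026 and 0.043), and these calls were lost under 5 and 10 of the 15 alternatives.

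Of 17 tested genes of fatty acid elongation, desaturation and activation, 4 were higher and 4 lower (23.5% each, against 13.6% and 12.4% of all genes tested). Elovl7, an elongase of long saturated chains, measured 61.4, 58.8, 60.3 and 65.3 CPM in the control and 128, 125, 141 and 158 CPM under RANKL. The groups lay far apart, with a log2 fold change of 1.19 ± 0.12 (SE) and an adjusted p of 1.8e-09. Hacd2, a dehydratase of the elongation cycle, and Acsl4, which activates polyunsaturated fatty acids, had log2 fold changes of 1.12 and 0.84 (adjusted p = 0.0085 and 0.0054), and without RANKL replicate 4 their adjusted p was 0.113 and 0.056. The Hacd2 call was also lost under the DESeq2 Wald test, at an adjusted p of 0.052. Hacd2 was low, with 2.95 to 7.64 CPM in the control and 7.82 to 16.5 CPM under RANKL, and 3 counts in control replicate 4. Fads3, a member of the desaturase family, fell by 1.32 ± 0.27 (SE, adjusted p = 0.00042) on the log2 scale, from 12.2 to 20.4 CPM down to 4.82 to 9.39 CPM.

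Fatty acid oxidation and ketogenesis had 7 of 18 tested genes lower and 1 higher, where 12.4% and 13.6% of all genes tested were called. Cpt1a, the carnitine transferase that lets long chains enter mitochondria, measured 68.2, 69.8, 95.5 and 77.4 CPM in the control and 35.5, 30.97, 33.9 and 30.8 CPM under RANKL. It fell by 1.26 ± 0.15 (SE) on the log2 scale, with an adjusted p of 9.7e-08 and no overlap. Ppara, the nuclear receptor that drives oxidation genes, fell by 0.91 ± 0.18 (SE, adjusted p = 0.00026). Acaa2 and Acadm, enzymes of mitochondrial beta-oxidation, fell by 0.67 ± 0.11 and 0.56 ± 0.13 (SE), with adjusted p of 1.5e-05 and 0.0014. The median log2 fold change of this list was -0.17, against 0.00 over all genes tested and -0.08 over the 30 synthesis genes.

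**Figure D5:**
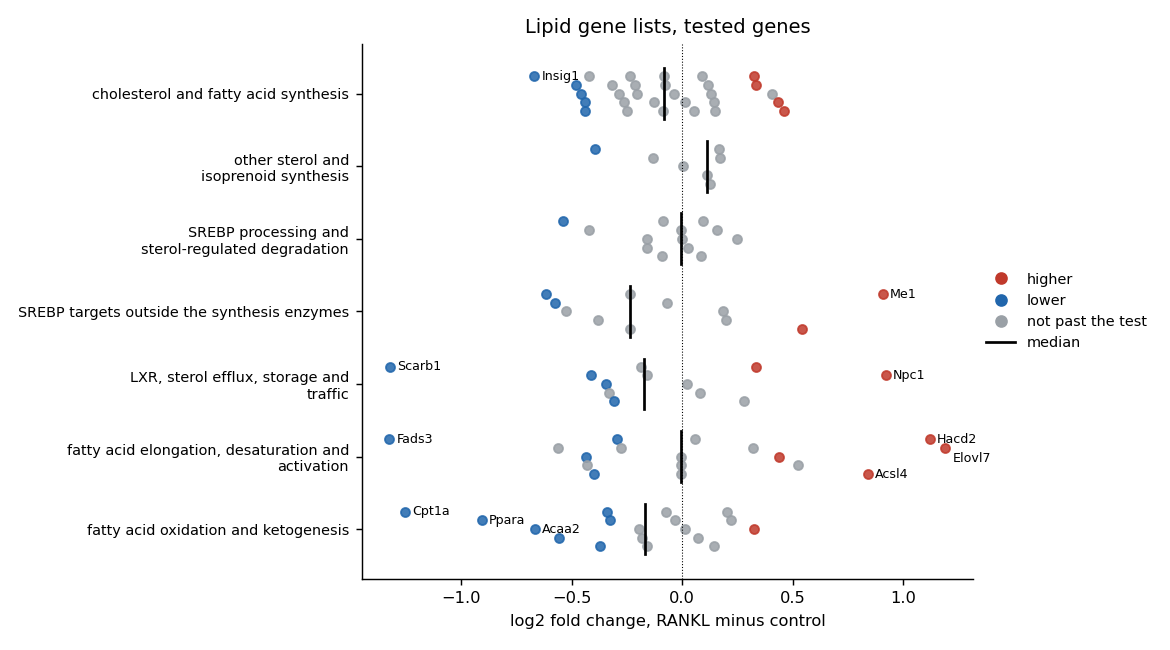
Log2 fold change of RANKL over control for each tested gene (points) of the 31-gene synthesis list and of 6 related lists, with the median of each list as a black line; names are given for the called genes with the largest changes. The synthesis genes lie between -0.67 and 0.46, while Scarb1, Fads3 and Cpt1a lie below -1 and Elovl7 and Hacd2 above 1.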

How the data were processed

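Bulk RNA-seq of 8 libraries of mouse intestinal organoids (4 control, 4 RANKL-treated) was analysed. Libraries had been made with a QuantSeq forward 3′ kit and read as single reads of 50 bases. Per the study's methods, the authors trimmed reads with BBDuk, removed abundant sequences with bowtie2, aligned with STAR and ran strand-specific featureCounts on genes of Ensembl release 94; per the labels the build was mm10. The authors deposited these raw counts, whole numbers with no normalisation, and molecular identifiers are not mentioned, so floors cover counting error only. A count of 0 allows 3 counts, which is 0.382 CPM at the largest library total and 5.16 CPM at the smallest.

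Groups and replicate numbers came from the sample labels. Gene names, positions and overlaps came from GENCODE release M21, which matched 54495 of 54532 identifiers; the others held 0.00675% of the counts. Main test: edgeR 4.0.16 (R 4.3.3), quasi-likelihood, TMM, filterByExpr, condition only, Benjamini-Hochberg over all 9971 genes tested, threshold 0.05. The standard error is the size of the log2 fold change over the square root of F, and 95% intervals use the test's degrees of freedom. The exact two-sided permutation test on CPM per member has 70 assignments and a smallest p of 0.0286, reached by the 9 members without overlap. The alternatives were DESeq2 size factors, library totals alone, the DESeq2 1.42.0 Wald test, limma 3.58.1 with voom, no filter, at least 10 counts in every library, a replicate block, and each library left out in turn. The steps were tested on simulated data. Figures and tables were made with Python 3.11.15, pandas 2.3.3, scipy 1.17.1 and matplotlib 3.10.9.

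The members, lists and tests were chosen with earlier results of these data known. The genes named are the 31 members, and from each related list up to 4 called genes with the largest change at a mean of at least 5 CPM; some of these genes are not reported here. Of the related lists, Faxdc2 was not analysed here. Other experiments of the study were not used here.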

Additional observations from a re-analysis of the deposited data

Results flagged for a closer look

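Of 110 groups of 4 libraries examined, 3 held a library far from the other 3 by Dixon's criterion, where chance alone gives about 1 in 20, or 5.5. Mvd stood at 1540 CPM in control replicate 3, against at most 854 CPM in the other controls. Npc1l1 was at 66.1 CPM in that library, against at least 104 CPM in the other controls. Idi1 stood at 8.60 CPM in control replicate 4, the shallowest library, where 5 counts lie behind the value, against at most 2.68 CPM in the others.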

How the results depend on the processing

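Scaling by DESeq2 size factors gave 4 members higher and 5 lower, against 13.6% and 12.4% of all genes tested. Library totals alone gave 5 and 5, against 14.4% and 11.1%. These scalings moved the median of all genes by at most 0.025 on the log2 scale. The DESeq2 Wald test and the fit without a filter each called 2 members higher, and 5 lower, with Idi1 tested but not called (adjusted p = 0.388 and 0.361). Leaving out each library in turn gave 1853 to 2601 genes called, 0 to 5 members higher and 5 to 7 lower. In these fits 10.2% to 13.5% of all genes tested were called higher and 7.97% to 12.2% lower. The members' median ran from -0.13 to -0.05, and 9 to 12 members were without overlap. With a library fewer, separation is easier for any gene, and its share over all genes was not computed there. Of the 21 members not called, 17 gained no call under any alternative, while Hsd17b7 gained one under 6, Dhcr7 under 2, and Mvd and Stard4 under 1 each. The sign changed for 5 members with values near 0, and the cause was not tested. With each library left out in turn, Mvd ran from -0.0159 (without control replicate 1) to 0.39, and was at -0.0010 without control replicate 4. Tm7sf2 ran from -0.22 to 0.0105 and Srebf2 from -0.0019 to 0.12, both with RANKL replicate 1 left out at the end that changed sign. Sc5d was at -0.0242 without a filter and ran from -0.0519 to 0.0991 with a library left out, below 0 without control replicates 3 or 4 or RANKL replicate 1. Srebf1 was at 0.0551 with the replicate block, and ran from -0.19 to 0.1745 with a library left out, above 0 without control replicate 1 or RANKL replicate 3. The replicate block called 2610 genes, 3 members higher and 6 lower, against 13.7% and 12.5% of all genes tested. Deviations of same-numbered libraries correlated by -0.03 to 0.10, and 3 of 8 libraries correlated best with their own number. The labels do not say that a shared number marks a batch, so the numbers were not taken as pairs. These correlations cannot decide whether the libraries were paired. Idi1 had 8 counts over the RANKL libraries and 20 in control replicate 1, the deepest library. Srebf1 was low too, and its interval was wide. The part of depth in either was not tested.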
